A study of Mus musculus with 10 samples.

Results

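The genes described here are the histone lysine methyltransferases and demethylases of MC38 tumours, taken as every gene of the deposited table whose symbol begins with Kdm, Kmt or Setd followed by a digit. The rule uses the name alone and no measured value, and it found 33 of 18223 genes: 16 with names of methyltransferases and 17 with names of demethylases. MC38 is a mouse colon adenocarcinoma cell line that forms tumours in immunocompetent mice. RNA was sequenced from whole subcutaneous tumours, in 5 libraries labelled high tumour burden (HTB) and 5 labelled low (LTB). The treatment label is 2000000 over 14 days for HTB and 500000 over 14 days for LTB, taken to mean how many tumour cells were implanted and for how long they grew; both groups are otherwise labelled alike. The labels give no host strain, no measured tumour size and no statement that each library came from its own animal, so p-values measure the spread between these libraries, which may be partly technical.

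Histone tails carry methyl groups on several lysines, and each site has its own enzymes. Methylation of H3K4 and H3K36 marks active promoters, enhancers and gene bodies, whereas methylation of H3K9, H3K27 and H4K20 is tied to silencing or compaction. KMT and SETD proteins share the catalytic SET domain, which moves a methyl group from S-adenosylmethionine to a lysine. Most KDM proteins are JmjC dioxygenases that need iron, oxygen and 2-oxoglutarate, and the KDM1 pair uses FAD instead. Messenger RNA levels, the quantity given throughout, do not measure the enzymes' activity or the marks themselves.

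The differences between the groups were small and lay mostly on the side of higher levels in HTB. Of 32 tested genes, 4 were higher in HTB and 0 were lower at an adjusted p under 0.05 (edgeR quasi-likelihood test, Benjamini-Hochberg over all 13470 tested genes). They were Kdm5b, Setd7, Setd1b and Kdm2b, with folds of 1.31, 1.19, 1.2 and 1.16. Over all tested genes 3.90% were called higher and 7.51% lower, or 11.4% in either direction. The 12.5% called here is thus close to the share called among all genes. All 4 were higher in HTB, and all 4 had more than 10 kb of exon. Of all tested genes of that length, 67.7% had a log2 fold change above 0. At an unadjusted p under 0.05, 13 of the 32 were higher and 0 lower by edgeR, beside 13.9% and 15.2% of all tested genes. The log2 fold change was above 0 in 25 of 32 genes, with a median of 0.17 and a range of -0.32 to 0.39, and above 0 in 52.7% of all tested genes, with a median of 0.02. Every HTB library lay above every LTB library for 5 of the 32, and for 4.68% of all tested genes; the reverse held for 0 of the 32 and for 7.06% of all. In the authors' deposited table, which the column names attribute to DESeq2, 6 of the 33 have a q under 0.05, all higher in HTB, beside 14.5% of all genes in either direction and 6.86% higher. Positive values in that table run with higher levels in HTB, as checked on the reads of its called genes, although its column name puts LTB first. DESeq2 run on the same reads called 6 of the 32 higher and 0 lower, beside 7.91% of all tested genes higher and 10.3% lower, or 18.2% in either direction.

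The count of calls changed with single libraries. Without HTB replicate 2 it was 11, the 4 genes included, beside 9.77% of all genes, and 9 without both HTB replicate 2 and LTB replicate 1, beside 9.26%. It was 0 without HTB replicate 3, 4 or 5 and without LTB replicate 1 or 4, 1 without LTB replicate 3 or 5, and 2 without HTB replicate 1 or LTB replicate 2. The share of all genes called higher was also lower without any of those 9 libraries, at 1.30% to 2.76%, and the median log2 fold change of the 32 genes was 0.11 to 0.21. Total exon length moved with the result: the 32 tested genes had a median of 8990 bp against 4458 bp over the tested genes, and the median log2 fold change of all tested genes above 10 kb was 0.10. When the trend of each library on exon length was removed, 0 of the 32 passed in either direction (9 higher at an unadjusted p under 0.05 by edgeR), beside 4.28% of all genes higher and 7.65% lower.

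**Figure D1:**
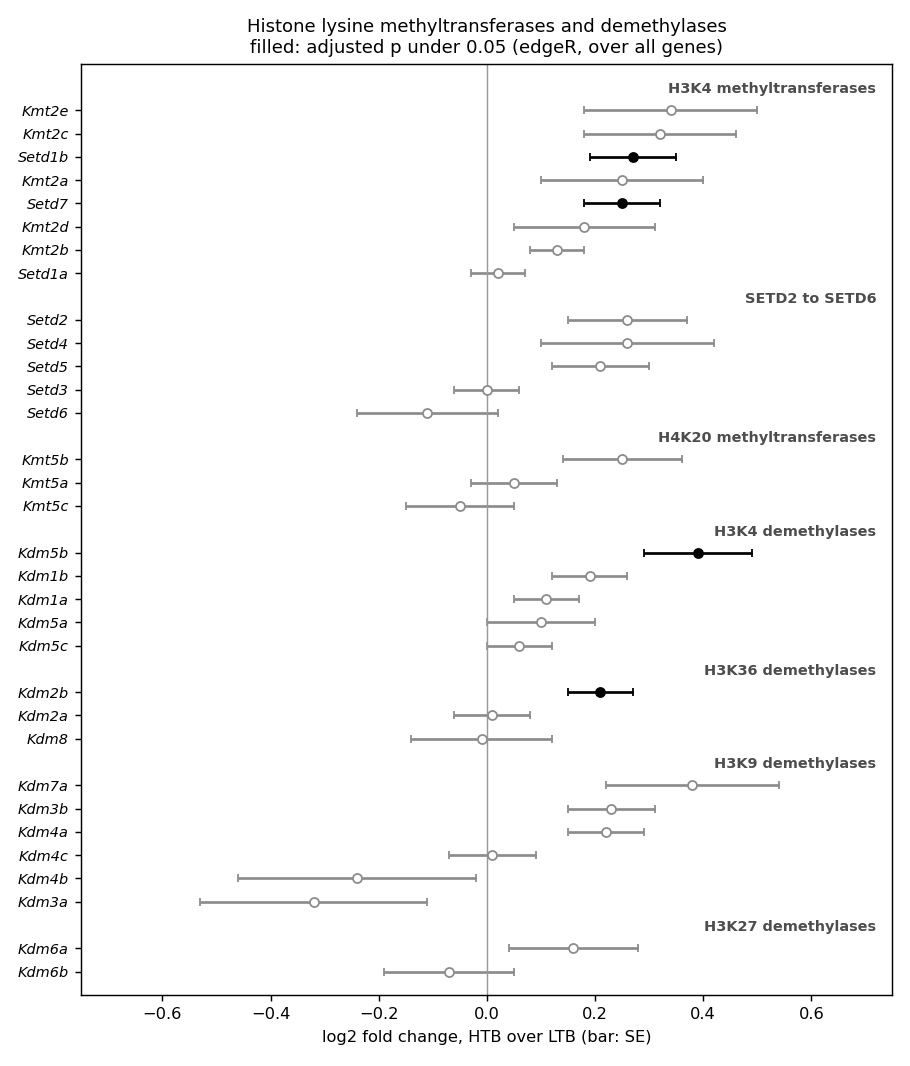
Log2 fold change of HTB over LTB for the 32 tested genes, grouped by the site they are listed under, with SETD2 to SETD6 as their own group. Bars are the standard error, and filled points have an adjusted p under 0.05 by edgeR. The 4 filled points lie between 0.21 and 0.39, and the points below 0 reach -0.32.

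Promoter sequences are shown for those genes called higher that have an entry in the RefSeq promoter table (build GRCm38.p6), because CpG-rich start sites are common among these genes and unmethylated CpG is what several of the encoded proteins bind. Each run covers the stretch before and just after the most upstream start in that table, 5′ to 3′ on the gene's strand, with every CG dinucleotide in capitals. The Kdm5b window is chr1:134559928-134560227 on the plus strand, the Setd7 window chr3:51560774-51561073 on the minus strand and the Kdm2b window chr5:122989050-122989349 on the minus strand.
Kdm5b: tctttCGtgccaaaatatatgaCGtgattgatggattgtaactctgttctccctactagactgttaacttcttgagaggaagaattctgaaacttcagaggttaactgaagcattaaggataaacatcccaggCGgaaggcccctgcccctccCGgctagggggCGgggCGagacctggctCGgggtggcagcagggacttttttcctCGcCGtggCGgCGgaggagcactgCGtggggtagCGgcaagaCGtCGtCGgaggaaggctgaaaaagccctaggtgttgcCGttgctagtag
Setd7: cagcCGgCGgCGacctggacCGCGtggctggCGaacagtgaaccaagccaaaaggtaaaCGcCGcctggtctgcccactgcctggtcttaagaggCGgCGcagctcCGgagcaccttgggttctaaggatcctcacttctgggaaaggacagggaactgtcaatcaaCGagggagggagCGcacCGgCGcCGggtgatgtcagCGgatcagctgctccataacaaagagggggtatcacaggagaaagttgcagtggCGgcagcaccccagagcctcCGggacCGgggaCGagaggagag
Kdm2b: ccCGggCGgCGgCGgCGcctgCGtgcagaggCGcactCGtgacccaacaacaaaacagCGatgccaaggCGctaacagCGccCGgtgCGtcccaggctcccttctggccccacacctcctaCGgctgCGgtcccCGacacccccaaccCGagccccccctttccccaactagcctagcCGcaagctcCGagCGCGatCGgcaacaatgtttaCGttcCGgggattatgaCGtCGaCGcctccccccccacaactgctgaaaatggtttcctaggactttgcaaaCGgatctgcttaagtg
These windows hold 17, 21 and 28 CG dinucleotides. Over the 35 RefSeq windows of 25 of the 33 genes the median was 27, and 88.6% held at least 10. Over the 32851 windows counted, of 27025 genes, the median was 7, and 43.5% held at least 10. That wider set was not limited to tested genes. Windows of tested genes alone were not compared, so the higher counts are not read as particular to the 33 genes. KDM2A, KDM2B, KMT2A and KMT2B carry a CXXC zinc finger that binds unmethylated CpG, as does CXXC1, a subunit of the SETD1 complexes. The counts describe the letters only and say nothing of methylation or binding in these tumours.

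The H3K4 methyltransferases held 2 of the 4 called genes, and all 8 listed had a log2 fold change above 0, with a median of 0.25. Over all tested genes 3.90% were called higher and 52.7% lay above 0, or 67.7% of those above 10 kb of exon. Setd7 (NCBI gene 73251, chromosome 3 from 51460688 to 51561557 in GRCm38, minus strand) encodes a monomethyltransferase of H3K4 and of non-histone proteins such as p53. It had 133, 145, 137, 140 and 149 CPM in HTB replicates 1 to 5, against 106, 123, 132, 117 and 116 CPM in LTB replicates 1 to 5. The lowest HTB library thus stood just above the highest LTB library, and the groups did not overlap. The log2 fold change was 0.25 ± 0.07 (SE; adjusted p = 0.0374 by edgeR), and 0.18 with the length trend removed (adjusted p = 0.0648). The deposited span of Setd7 reaches 54630 bp beyond the RefSeq gene and covers Naa15 and Rab33b, so reads of those genes could have been divided with it.

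Setd1b (208043, chromosome 5 from 123142105 to 123168632, plus strand), the catalytic subunit of a complex that places H3K4 trimethylation at promoters, stood at 63.9, 65.4, 65.7, 68.2 and 79.1 CPM in HTB, against 51.0, 63.0, 54.4, 56.6 and 59.1 CPM in LTB. HTB replicate 5 was well above the other HTB libraries, and the lowest HTB value exceeded the highest LTB value by less than 1 CPM. Its log2 fold change was 0.27 ± 0.08 (adjusted p = 0.0481 by edgeR), the nearest of the 4 to the threshold, and 0.20 with the length trend removed (adjusted p = 0.0648). Setd1a, its paralogue with the same partners, averaged 116 ± 5.49 CPM (SD) in HTB and 115 ± 5.15 CPM (SD) in LTB (n = 5 each), and its log2 fold change was 0.02 ± 0.05. The deposited span of Setd1a reaches 33087 bp beyond the RefSeq gene and covers Fbxl19, Orai3 and Hsd3b7, so its counts are uncertain. The difference between the paralogues' changes was not tested.

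The 4 large MLL enzymes and Kmt2e had higher means in HTB, but the spread between libraries was wide. Kmt2a, the MLL1 gene that maintains HOX expression, averaged 220 ± 41.6 CPM in HTB and 184 ± 28.0 CPM in LTB (adjusted p = 0.281 by edgeR). Kmt2b, its closest relative, was among the steadiest genes, at 94.6 ± 5.01 CPM in HTB and 86.6 ± 3.41 CPM in LTB (log2 fold change 0.13 ± 0.05, adjusted p = 0.148). The enhancer enzymes Kmt2c and Kmt2d averaged 79.9 ± 16.7 and 314 ± 61.3 CPM in HTB, against 64.0 ± 5.87 and 276 ± 19.0 CPM in LTB, with log2 fold changes of 0.32 and 0.18; Kmt2d was 0.11 without HTB replicate 5. Kmt2e, whose product binds methylated H3K4 and has little or no methyltransferase activity of its own, had 204, 138, 193, 234 and 255 CPM in HTB, against 130, 196, 160, 158 and 163 CPM in LTB. HTB replicate 2 held the lowest HTB value of Kmt2a, Kmt2c, Kmt2d and Kmt2e, and LTB replicate 1 the lowest LTB value of each. Without HTB replicate 2, Kmt2c (0.43), Kmt2d (0.29) and Kmt2e (0.46) passed with adjusted p of 0.0143, 0.0422 and 0.022 by edgeR, and Kmt2a stood at 0.35 (adjusted p = 0.0556).

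None of the SETD2 to SETD6 genes passed. They were listed together as H3K36 methyltransferases, but only SETD2 has an established part in that mark, as the enzyme of H3K36 trimethylation on transcribed gene bodies. SETD3 methylates a histidine of actin, SETD6 methylates the NF-kappa B subunit RELA, SETD5 acts largely through a corepressor complex, and SETD4 is less well characterised. Setd2 had the smallest p of the group, with 144, 107, 133, 149 and 153 CPM in HTB, against 93.8, 128, 122, 113 and 115 CPM in LTB. Its groups overlapped through HTB replicate 2, and the log2 fold change was 0.26 ± 0.11 (adjusted p = 0.14 by edgeR). Without that library Setd2 passed at 0.34 (adjusted p = 0.0218), as did Setd5 at 0.27 (adjusted p = 0.0412). Setd3 had equal means, at 92.9 ± 7.28 CPM in HTB and 92.9 ± 3.71 CPM in LTB, although HTB replicate 2 reached 106 CPM. Setd4 was low, with HTB libraries between 6.90 and 7.99 CPM and LTB libraries between 4.38 and 7.41 CPM, and Setd6 had a log2 fold change of -0.11 ± 0.13, which ranged over -0.22 to -0.04 when single LTB libraries were left out. Setd6 overlaps the abundant gene Cnot1 and Setd3 overlaps Ccnk, so their counts are uncertain while the strand setting of the counting is unknown.

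The H4K20 enzymes did not pass either. Kmt5b, which with Kmt5c adds the second and the third methyl group, had 49.2, 40.2, 48.6, 45.8 and 50.8 CPM in HTB, against 31.5, 44.7, 40.7, 35.7 and 44.8 CPM in LTB. HTB replicate 2 fell inside the LTB range and the other HTB libraries lay above it (log2 fold change 0.25 ± 0.11, adjusted p = 0.151 by edgeR). Kmt5c, the paralogue with the same product, averaged 51.8 ± 2.40 CPM in HTB and 53.6 ± 8.63 CPM in LTB. Kmt5a, which places the first methyl group and is regulated through the cell cycle, averaged 215 ± 23.7 CPM in HTB and 207 ± 11.8 CPM in LTB. Per length it was the most abundant of the 33 genes, at 39.8 CPM per kb of exon over the 10 libraries.

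**Figure D2:**
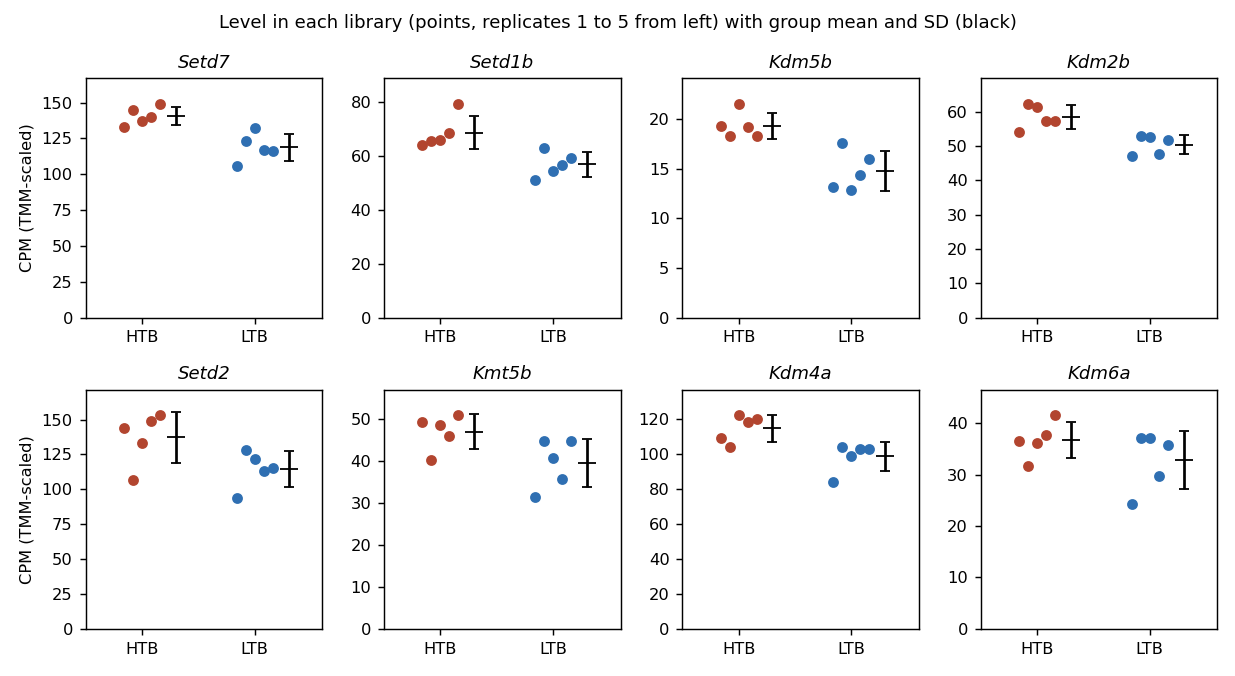
CPM of the 4 genes higher in HTB (upper row) and of the gene with the smallest p in 4 other groups (lower row), by library, with group mean and SD in black; axes start at 0. In the upper row every HTB point lies above every LTB point, by margins that are small beside the level.

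Among the H3K4 demethylases, Kdm5b was the called gene, and all 5 genes of the group were above 0, as were 52.7% of all tested genes. Kdm5b (75605, chromosome 1 from 134560178 to 134636737, plus strand) encodes JARID1B, which removes methyl groups from trimethylated and dimethylated H3K4 and marks slow-cycling cells in melanoma. Its levels were 19.3, 18.3, 21.5, 19.2 and 18.3 CPM in HTB, against 13.1, 17.6, 12.8, 14.4 and 16 CPM in LTB. All HTB libraries were above LTB replicate 2, the highest of that group, by a narrow margin, and HTB varied less than LTB. The log2 fold change was 0.39 ± 0.10 (adjusted p = 0.0357 by edgeR), or 0.30 with the length trend removed (adjusted p = 0.0721). Per length, Kdm5b had the lowest level of the 32 tested genes described here, at 1.03 CPM per kb, where Kdm5c had 17.5 and Kdm5a 6.01. The overlapping gene Mgat4e had 0 reads in all libraries.

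The other H3K4 demethylases differed less. Kdm1b, the FAD-dependent enzyme best known from oocytes, averaged 29.6 ± 1.64 CPM in HTB and 25.9 ± 1.66 CPM in LTB (0.19 ± 0.07 on the log2 scale, adjusted p = 0.0891 by edgeR). In the authors' deposited table Kdm1b has a log2 fold change of 0.20 and a q of 0.0415. Kdm1a, the LSD1 gene, whose product works in the CoREST complex, averaged 108 ± 3.26 CPM in HTB and 99.5 ± 6.46 CPM in LTB (adjusted p = 0.209). Kdm5a averaged 88.1 ± 12.8 CPM in HTB and 82.1 ± 3.70 CPM in LTB, a log2 fold change of 0.10 that was 0.18 without HTB replicate 2 and 0.04 without HTB replicate 5. Kdm5c, an X-linked gene that escapes X inactivation, averaged 127 ± 4.90 CPM in HTB and 122 ± 8.34 CPM in LTB.

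The H3K36 demethylases split between a called gene and a pair that hardly differed. Kdm2b (30841, chromosome 5 from 122869067 to 123012874, minus strand in GENCODE) encodes a CpG-binding demethylase that also brings a Polycomb complex to CpG islands. It had 54.0, 62.3, 61.5, 57.5 and 57.4 CPM in HTB, against 47.2, 52.9, 52.6, 47.8 and 51.7 CPM in LTB. The groups did not overlap, and here HTB replicate 2 was the highest library, not the lowest. The log2 fold change was 0.21 ± 0.06 (adjusted p = 0.0452 by edgeR), and 0.15 with the length trend removed (adjusted p = 0.145). Its paralogue Kdm2a averaged 143 ± 7.18 CPM in HTB and 142 ± 11.1 CPM in LTB, a log2 fold change of 0.01 ± 0.07 that was -0.08 with the length trend removed. Kdm8, a JmjC protein whose demethylase activity is disputed, averaged 6.37 ± 0.602 CPM in HTB and 6.41 ± 0.949 CPM in LTB.

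The H3K9 demethylases held no called gene and the widest range of changes. Kdm4a, which acts on trimethylated H3K9 and H3K36, had 109, 104, 122, 118 and 120 CPM in HTB, against 84.1, 104, 98.9, 103 and 103 CPM in LTB. The groups did not overlap, although the lowest HTB and the highest LTB value both round to 104 CPM, and the log2 fold change was 0.22 ± 0.07 (adjusted p = 0.0821 by edgeR). The authors' deposited table gives Kdm4a a q of 0.0385. Kdm7a, which acts on H3K9 and H3K27, averaged 44.3 ± 10.7 CPM in HTB and 34.1 ± 3.04 CPM in LTB, with HTB replicate 2 at 29.6 CPM below every LTB library. Without HTB replicate 2 its log2 fold change was 0.49 ± 0.11 (adjusted p = 0.0137), against 0.38 ± 0.16 (adjusted p = 0.14) with all libraries. Kdm3b averaged 89.6 ± 5.08 CPM in HTB and 76.3 ± 8.92 CPM in LTB (adjusted p = 0.101). Kdm4c stood at 0.01 ± 0.08.

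Kdm3a and Kdm4b, a pair known as hypoxia-inducible genes, had the lowest log2 fold changes and the largest spread. Kdm3a had 105, 66.2, 94.7, 127 and 152 CPM in HTB, against 93.5, 153, 132, 138 and 165 CPM in LTB. Kdm4b had 38.4, 25.5, 38.9, 41.4 and 63.2 CPM in HTB, against 35.1, 54.5, 40.5, 53.7 and 61.5 CPM in LTB. For both genes HTB replicate 2 was the lowest of all 10 libraries, HTB replicate 5 the highest of its group, LTB replicate 1 the lowest of its group and LTB replicate 5 the highest of its group. The log2 fold changes were -0.32 ± 0.21 and -0.24 ± 0.22, and neither passed (adjusted p = 0.336 and adjusted p = 0.505 by edgeR). Without HTB replicate 2 they were -0.18 for Kdm3a and -0.11 for Kdm4b, and leaving out HTB replicate 5 or LTB replicate 5 gave -0.44 or -0.15 for Kdm4b. The within-group SD on the log2 scale was 0.39 for Kdm3a and 0.41 for Kdm4b, against 0.07 for Kdm1a, Kmt2b and Setd1a, and their standard errors were close to the size of the changes called in other genes. Kdm4d, known mainly from testis, had 4 to 8 reads per library and was not tested.

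The H3K27 demethylases did not differ beyond their spread. Kdm6a, the X-linked UTX gene, had 36.5, 31.7, 36.1, 37.6 and 41.5 CPM in HTB, against 24.3, 37.2, 37.1, 29.7 and 35.8 CPM in LTB (log2 fold change 0.16 ± 0.12, adjusted p = 0.41 by edgeR). The groups overlapped, with LTB replicate 1 the lowest library, and without it the log2 fold change was 0.07. Kdm6b, the JMJD3 gene that inflammatory signals induce in macrophages, averaged 72.5 ± 11.5 CPM in HTB and 76.0 ± 7.45 CPM in LTB (log2 fold change -0.07 ± 0.12, adjusted p = 0.733). Its lowest library was HTB replicate 2 at 53.3 CPM, and without that library the log2 fold change was 0.03.

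**Figure D3:**
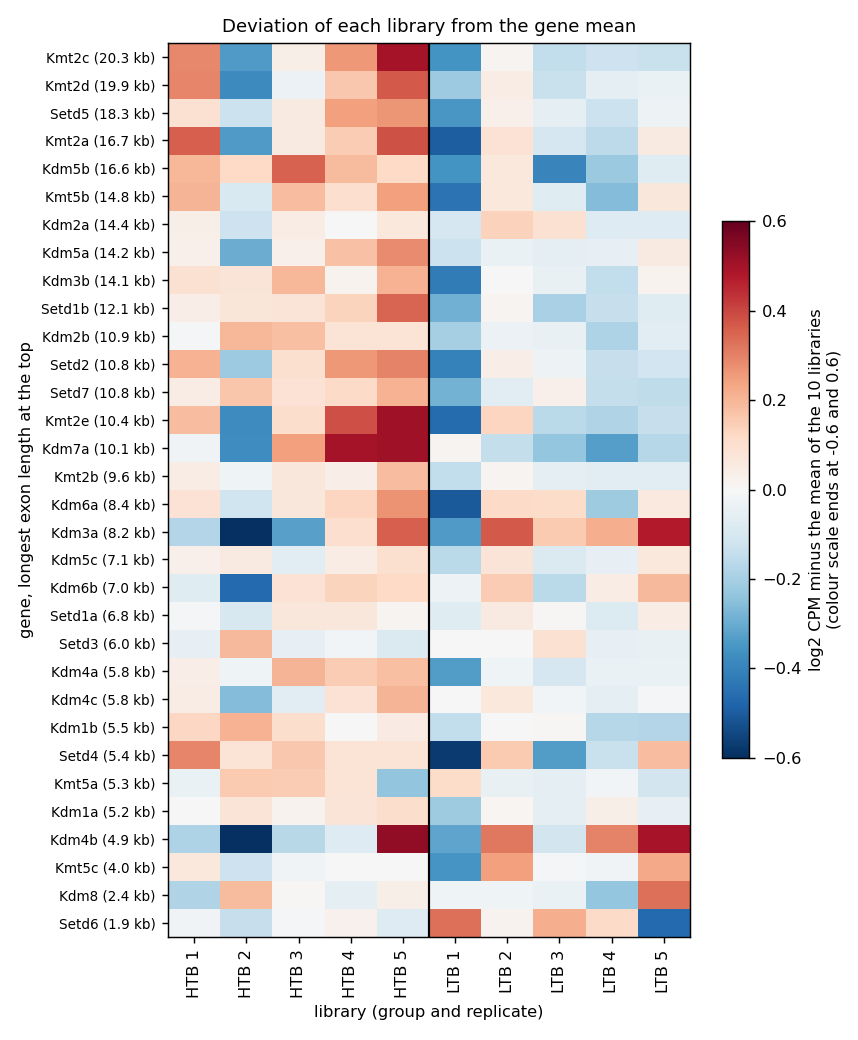
Each cell is the log2 CPM of a gene in a library minus that gene's mean over the 10 libraries, with the gene of longest exon length at the top and the 5 HTB libraries on the left. HTB replicate 2 and LTB replicate 1 are mostly blue and HTB replicate 5 mostly red, most strongly in the upper, longer genes and in Kdm3a and Kdm4b.

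Within each group, many of the genes had the same lowest or highest library. HTB replicate 2 was the lowest HTB library for 20 of the 32 tested genes, and HTB replicate 5 the highest for 20. In LTB, replicate 1 was the lowest for 22 and replicate 2 the highest for 17. Matching counts over all tested genes were not made, so these are not read as particular to the 32 genes. Over the whole table too, HTB replicate 2 and LTB replicate 1 differed most from the other libraries of their groups. Together the 33 genes took 0.322%, 0.262%, 0.318%, 0.333% and 0.351% of the reads in HTB replicates 1 to 5, against 0.251%, 0.310%, 0.291%, 0.278% and 0.290% in LTB replicates 1 to 5. These shares overlapped between the groups, with LTB replicate 1 and HTB replicate 2 as the lowest pair.

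Library totals were 24884292 to 27185168 estimated reads in HTB and 23070917 to 26880191 in LTB. HTB replicate 2 had the lowest total of its group, whereas LTB replicate 1 had the highest of its group. Markers of other cell types were uneven between libraries. HTB replicate 2 held 14636 CPM summed over 10 skeletal muscle markers and 5301 CPM over 8 adipocyte markers, where the other HTB libraries held at most 62.7 and 25.4 CPM and LTB libraries at most 9.86 and 37.0 CPM. The muscle sum was at least 10.7 CPM in every HTB library, above every LTB library. Of 7 tested muscle markers 3 were called higher, beside 3.90% of all tested genes, and of 2 tested adipocyte markers 0. Without HTB replicate 2, Acta1 (adjusted p = 0.0256 by edgeR) and Tnnt3 (adjusted p = 0.00557) still passed, and Atp2a1 (adjusted p = 0.0509) did not. In that fit 9.77% of all genes were called higher. In the other HTB libraries, in order, Acta1 stood at 0.472, 22.1, 1.37 and 3.03 CPM, against 0.0888 to 1.1 CPM in LTB. Tnnt3 stood at 4.61 to 12.3 CPM in those HTB libraries, against 1.66 to 3.06 CPM in LTB. LTB replicate 1 had the highest sums of the 9 T cell, 12 macrophage and 8 neutrophil markers. The T cell markers had sums of 17.1 to 46.9 CPM in the HTB libraries, against 46.7 to 216 CPM in the LTB libraries. Of these 9 genes, 7 were called lower in HTB and all 9 had a log2 fold change below 0. The macrophage sums were 739 to 1219 CPM in the HTB libraries, against 1202 to 2509 CPM in the LTB libraries. Of those 12 genes, 4 were called lower and 11 lay below 0. The neutrophil sums were 21.3 to 76.2 CPM (HTB) and 32.2 to 101 CPM (LTB), with 2 of 7 tested called lower and 6 below 0. The fibroblast sums were 2329 to 3291 CPM (HTB) and 2496 to 2911 CPM (LTB), with 1 of 8 called lower and 3 below 0. Over all tested genes 7.51% were called lower. The 8 epithelial markers together reached 2.85 to 7.05 CPM in the HTB libraries and 6.44 to 16.2 CPM in the LTB libraries, with Krt18, Cldn4 and Cldn7 at 10 or fewer reads over all libraries, so the epithelial origin of MC38 is barely visible in either group. The part of these cell mixtures in the small differences above was not tested, and in whole tumours fewer cells of a type and less RNA per cell cannot be told apart.

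**Figure D4:**
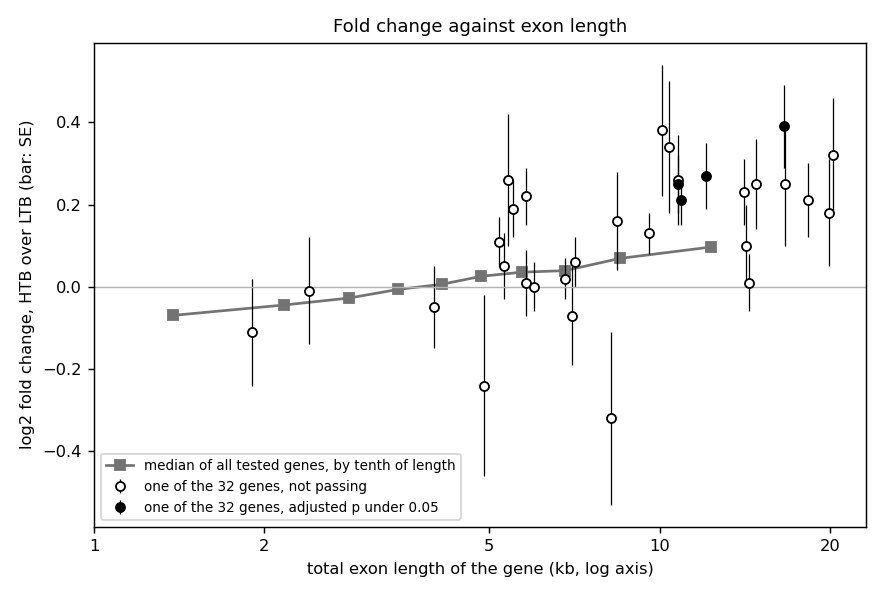
Log2 fold change of HTB over LTB, with standard error bars, against total exon length on a log axis for the 32 tested genes, and the median of all tested genes in each of 10 equal bins of length as grey squares. The grey line rises with length, and the 4 filled points stand at lengths above 10 kb and higher than its last square.

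The direction of change differed between long and short genes. All 15 genes with more than 10 kb of exon had a log2 fold change above 0, with a median of 0.25, and these include the 4 called genes. Of the 1267 tested genes of that length in the whole table, 67.7% were above 0, with a median of 0.10 and 5.92% called higher. The 13 genes of 5 to 10 kb, 10 of them above 0, had a median of 0.06. Over the 4418 tested genes of that length the median was 0.05, and 59.0% were above 0. The 4 shorter genes, 0 of them above 0, had a median of -0.08. Over the 7503 tested genes that short the median was -0.02, and 46.4% were above 0. In single libraries the tested genes above 10 kb had median log2 deviations from their means of 0.04, -0.07, 0.04, 0.07 and 0.10 in HTB replicates 1 to 5, against -0.16, 0.02, 0.01, -0.06 and -0.02 in LTB replicates 1 to 5. With the length trend removed the median of the 32 genes was 0.11, and 23 of 32 were above 0. With that trend removed and HTB replicate 2 left out, 5 genes were higher (Kdm4a, Kdm7a, Kmt2c, Kmt2e and Setd2), beside 9.34% of all genes, and 0 of these are among the 4 called with all libraries.

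Other enzymes and partners of the same pathway are set beside the 3.90% of all tested genes called higher and the 7.51% called lower. Of 22 tested lysine methyltransferases outside the naming rule, 1 was higher in HTB and 0 lower, with a median log2 fold change of 0.10. That gene was Ehmt1, which encodes the GLP partner of the H3K9 enzyme G9a, at 70.4, 69.3, 72.2, 70.6 and 71.2 CPM in HTB, against 55.0, 67.5, 60.4, 63.8 and 59.1 CPM in LTB (log2 fold change 0.21 ± 0.06, adjusted p = 0.0463 by edgeR). It did not pass with the length trend removed (adjusted p = 0.0599). Mecom (0.34 ± 0.10, adjusted p = 0.0517) and Prdm2 (0.19 ± 0.07, adjusted p = 0.0926), both PR domain genes, came next.

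Of 6 other demethylase genes in the table, Phf2 was higher and Hr lower. Hr, the hairless gene, which encodes a JmjC corepressor of nuclear receptors, had 22.1, 15.3, 10.8, 14.8 and 28.3 CPM in HTB, against 38.1, 45.2, 51.2, 43.9 and 59.4 CPM in LTB. The groups did not overlap, and the log2 fold change of -1.38 ± 0.24 (adjusted p = 0.00655 by edgeR) was several times larger than that of any of the 32 genes. Phf2, an H3K9 demethylase with a PHD finger that reads H3K4 methylation, averaged 91.5 ± 5.88 CPM in HTB and 76.2 ± 3 CPM in LTB (0.27 ± 0.06, adjusted p = 0.0164). Its paralogue Phf8 stood at 0.27 ± 0.09 (adjusted p = 0.0844).

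Among 12 partners of the H3K4 methyltransferase complexes, 1 was higher. Cxxc1, the CpG-binding subunit of the SETD1 complexes, had 55.9, 55.5, 58.9, 54.2 and 57.8 CPM in HTB, against 48.0, 51.2, 45.6, 47.0 and 45.6 CPM in LTB (log2 fold change 0.25 ± 0.05, adjusted p = 0.0151 by edgeR). No library overlapped between the groups, and the value kept its call with the length trend removed (adjusted p = 0.0117) and without HTB replicate 2 (adjusted p = 0.012). Men1, the menin gene, and Ncoa6 stood at 0.19 ± 0.09 and 0.17 ± 0.10. No call was made among 14 Polycomb subunits, where Phf19 (-0.28), Rbbp7 (0.13) and Rnf2 (0.21) had the smallest p, or among 9 CoREST partners, led by Rcor3 (0.37), Phf21a (0.44) and Gse1 (-0.14). In those 2 lists, 3 genes each, 2 higher and 1 lower, had an unadjusted p under 0.05 by edgeR. Over all tested genes 13.9% were higher and 15.2% lower at that threshold. Without HTB replicate 2, Phf19 (adjusted p = 0.0285), Rcor3 (adjusted p = 0.0116) and Phf21a (adjusted p = 0.00426) passed by edgeR, beside 22.4% of all genes in either direction. Rcor3 also passed with the length trend removed (adjusted p = 0.0351), beside 11.9% of all genes.

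Per length, the 33 genes spanned a wide range of levels. After Kmt5a came Kdm1a, at 20 CPM per kb of exon over the 10 libraries, Kdm4a at 18.4, Kdm5c and Kmt2e at 17.5 each and Setd1a at 17.0. The lowest were Kdm4d at 0.0861, Kdm5b at 1.03, Setd4 at 1.23, Kdm8 at 2.67 and Kmt5b at 2.93. The length is that of all GENCODE exons of a gene together, which is longer than a single transcript, so the levels of genes with many isoforms are understated.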

How the data were processed

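Bulk RNA sequencing of tumours in 5 HTB and 5 LTB libraries was used. Per the labels' protocols, RNA was column-purified and made into libraries with an mRNA kit. The deposited table holds estimated counts per gene, not scaled to depth; the build is GRCm38 (mm10) per the submitters' processing notes, while for aligner, counter and counting strand the entry is "not given in the sources used here". The authors' log2 fold changes and q-values come from the same deposited table and, per the file headers, from DESeq2.

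Of the deposited estimated counts, 86.4% were whole within 1e-09, and all were rounded, by at most 0.5. A single line with no gene was left out. Genes were filtered with filterByExpr, scaled by TMM (factors 0.971 to 1.031) and tested with edgeR 4.0.16 (R 4.3.3) by the quasi-likelihood test on group alone, two-sided, with Benjamini-Hochberg adjustment over all 13470 genes and a threshold of 0.05. CPM are TMM-scaled, errors of levels are SD over 5 libraries and errors of log2 fold changes are SE. Exon lengths are GENCODE M21 unions; all 33 genes had one. Alternatives used other scalings, filters, DESeq2 1.42.0, limma 3.58.1, a replicate block and left-out libraries; the removal of a per-library trend on exon length was chosen after seeing the data.

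The genes and the lists of partners and markers were chosen with earlier results of these data known. All libraries are given for genes that passed and for the smallest p in each group, and the 3 genes of smallest p are named in each list of other enzymes and partners; Kmt2e, Kdm3a and Kdm4b were given by library after their values were seen. The Y-linked Kdm5d was not among the genes that the naming rule found, and the Y-linked Uty was not analysed here. Within each group, every pair of libraries differed by more than sampling noise. Of the deposited spans, 16 of 33 overlap another protein-coding gene, so those counts are uncertain.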

Additional observations from a re-analysis of the deposited data

Results flagged for a closer look

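Single libraries stood apart from their group for 3 of 64 combinations of gene and group (4.69%), by a gap to the nearest library above 0.71 of the group's range; chance alone flags about 1 in 20. Setd1b stood at 79.1 CPM in HTB replicate 5, with the other HTB libraries at 63.9 to 68.2 CPM. Setd3 stood at 106 CPM in HTB replicate 2, the library rich in muscle and adipocyte markers, with the other HTB libraries at 87.5 to 91.7 CPM. Kdm4a stood at 84.1 CPM in LTB replicate 1, the library with the highest T cell and macrophage sums, with the other LTB libraries at 98.9 to 104 CPM. A link between these values and the cell mixture of the libraries was not tested.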

How the results depend on the processing

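The number of the 32 genes called higher in HTB was 4, and 2 with limma voom, 11 with voom and sample quality weights, 9 without HTB replicate 2 and LTB replicate 1 together, and 0 with the length trend removed; leaving out single libraries gave 0 to 11. The number called lower was 0 under every alternative run. DESeq2 called 6 higher (Kdm1b and Kdm4a besides the 4). Replicate numbers are shared between the groups but did not pair the libraries (correlations of deviations 0.00 to 0.11), and with a replicate block 0 of the 32 and 971 of all genes passed. Over all genes 1537 were called, against 2624 at a threshold of 0.1, 2449 by DESeq2, 3592 with quality weights, 2907 without HTB replicate 2 and LTB replicate 1, 2958 with the length trend removed and HTB replicate 2 left out, and 739 to 3040 when single libraries were left out. Of 704 log2 fold changes under 22 alternatives, 32 changed sign, in 7 genes whose values lie near 0; the other 25 genes had none. Kdm2a (0.01) was -0.01 with quality weights, -0.08 with the length trend removed, with or without HTB replicate 2, and -0.02 to 0.04 without single libraries. Kdm4c (0.01) was -0.004 and Setd1a (0.02) was -0.01 with the length trend removed, and Kdm4c was -0.04 to 0.08 without single libraries. Kdm6b (-0.07) was 0.01 with quality weights and without HTB replicate 2 and LTB replicate 1, and -0.11 to 0.03 without single libraries. Kdm8 (-0.01) was 0.01 with plain totals, 0.002 with no filter, 0.04 with the length trend removed and -0.06 to 0.08 without single libraries. Kmt5c (-0.05) was -0.13 to 0.01 without single libraries. Setd3 (-0.00) was 0.003 with DESeq2 size factors, 0.002 with upper-quartile factors and by DESeq2, 0.02 with plain totals, 0.01 with no filter and -0.05 to 0.02 without single libraries. The cause of these shifts was not tested. Kdm4d, at 4 to 8 reads per library, is limited by depth.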
